A study of Mus musculus with 7 samples.

Results

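Hepatocyte identity depends on a small set of liver-enriched transcription factors, and 9 of their genes are described here: Hnf4a, Foxa1, Foxa2, Foxa3, Cebpa, Cebpb, Onecut1, Nr5a2 and Prox1. They were taken by symbol from a table of 54532 genes, and each symbol matched 1 row. RNA had been sequenced from the livers of old C57BL/6 mice, in 3 libraries from animals on standard diet after supplementation with MDL-800 and 4 from control animals on standard diet alone. MDL-800 is known as an allosteric activator of the sirtuin SIRT6, which removes acetyl groups from histones. Its dose, the length of supplementation and the age of the mice in months are not stated in the labels. The labels do not state whether the 7 livers are those of different animals, and p-values therefore reflect library-to-library spread, which may be technical.

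These factors bind the regulatory regions of liver genes together and also bind each other's, so that the hepatocyte programme is held by a mutually connected network. FOXA proteins can bind closed chromatin and open it, HNF4A occupies many hepatocyte genes as a nuclear receptor homodimer, and C/EBP proteins, ONECUT1 and NR5A2 join them at shared regions. C/EBP-beta is also induced by inflammatory cytokines and drives acute phase genes, and PROX1 is known both in hepatocytes and in lymphatic endothelium. Whole liver was lysed, so a difference in the number of cells of a type and a difference in RNA per cell cannot be told apart.

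Recovered reads summed to 17600066 to 19920469 per library, and 11394 genes averaging 1 FPKM or more were tested. FPKM, the unit deposited by the authors, is fragments per kilobase of gene length scaled to a library total. MDL-800 2 and control 1 held 3514 and 2173 reads of the Y-chromosome genes Uty, Ddx3y, Eif2s3y and Kdm5d. The other 5 libraries held 0, and sex is not among the labels. Control 3 also held 0 reads of Xist, against 15495 to 21104 reads in the other 4 libraries without Y-linked reads. MDL-800 2 and control 1 each held 3 reads of Xist. The 13 hepatocyte markers were all detected in every library, with summed levels of 71130 to 72508 FPKM in MDL-800 and 71786 to 108431 FPKM in control livers. Of 10 macrophage and Kupffer cell markers, all were detected, with summed levels of 203.6 to 845.9 FPKM in MDL-800 and 254.9 to 2289 FPKM in control livers, the highest in control 2. Neutrophil markers summed to 12.8 to 86.7 FPKM in MDL-800 and 26.5 to 302 FPKM in control livers, again highest in control 2. Cholangiocyte markers summed to 35.2 to 100.4 FPKM in MDL-800 and 32.2 to 61.5 FPKM in control livers, most of it from Spp1. Sinusoidal endothelial markers summed to 32.8 to 42.2 FPKM in MDL-800 and 14.8 to 45.4 FPKM in control livers, the lowest in control 4. In log2 fold change, 2 of 13 hepatocyte, 3 of 5 cholangiocyte, 7 of 8 sinusoidal, 1 of 10 macrophage and 0 of 5 neutrophil markers at a tested level were above 0, and none passed limma. The cholangiocyte markers Cftr and Cldn4 and the neutrophil marker Ly6g were at 0 in at least 1 library. The part of these differences in the results below was not tested.

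All 9 genes had promoter sequence in the RefSeq table of build GRCm38.p6, 14 promoters in all. The sequences shown are the 250 bases before the start site of 5 of these promoters. Hnf4a has 2, an upstream one and a downstream one that is the main promoter of adult liver. Foxa1, Nr5a2 and Cebpa are shown because their transcripts were highest in the same 2 libraries, as described further on. Capitals mark 6 motifs searched on both strands: HNF4A (CAAAGTCCA), NR5A2 (CAAGGTCA), C/EBP (TTGCNNAA), FOXA (TGTTTAC), ONECUT (ATCAAT) and the TATA element (TATAAA).
Hnf4a upstream promoter, chr2:163506607-163506856, plus strand: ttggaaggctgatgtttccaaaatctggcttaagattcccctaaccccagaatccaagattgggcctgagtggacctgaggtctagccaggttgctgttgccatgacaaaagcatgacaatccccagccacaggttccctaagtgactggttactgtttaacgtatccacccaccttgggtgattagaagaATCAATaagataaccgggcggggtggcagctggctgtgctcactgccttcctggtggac
Hnf4a downstream promoter, chr2:163546905-163547154, plus strand: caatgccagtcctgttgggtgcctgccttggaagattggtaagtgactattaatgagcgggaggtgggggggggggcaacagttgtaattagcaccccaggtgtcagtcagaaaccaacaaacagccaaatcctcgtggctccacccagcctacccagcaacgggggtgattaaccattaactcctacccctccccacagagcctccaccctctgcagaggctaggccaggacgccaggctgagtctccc
Foxa1 promoter, chr12:57546112-57546361, minus strand: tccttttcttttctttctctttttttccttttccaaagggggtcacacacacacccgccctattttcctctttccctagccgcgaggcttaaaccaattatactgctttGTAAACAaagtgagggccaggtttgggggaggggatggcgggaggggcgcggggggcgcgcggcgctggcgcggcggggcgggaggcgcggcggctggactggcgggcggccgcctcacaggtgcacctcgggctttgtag
Nr5a2 first promoter, chr1:136960449-136960698, minus strand: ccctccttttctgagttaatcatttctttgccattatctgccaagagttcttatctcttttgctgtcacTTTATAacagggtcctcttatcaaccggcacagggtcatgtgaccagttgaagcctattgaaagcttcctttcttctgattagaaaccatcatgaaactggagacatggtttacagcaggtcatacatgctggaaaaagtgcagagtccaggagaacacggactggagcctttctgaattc
Cebpa promoter, chr7:35119043-35119292, plus strand: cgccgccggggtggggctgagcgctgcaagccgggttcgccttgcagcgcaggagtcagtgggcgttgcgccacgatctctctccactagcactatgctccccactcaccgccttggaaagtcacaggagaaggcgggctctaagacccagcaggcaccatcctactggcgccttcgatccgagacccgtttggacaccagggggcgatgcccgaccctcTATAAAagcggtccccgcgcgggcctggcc

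The upstream Hnf4a promoter held an ONECUT match that began 59 bases before the start site. The downstream one held no match. The Foxa1 promoter held a FOXA match 141 bases before its own start. The first Nr5a2 promoter held a TATA match at 181 bases before the start, and the Cebpa promoter held a TATA match at 30 bases. Among all 32851 promoters of this length, 6.72% held the ONECUT letters, 3.17% the FOXA letters and 12.4% the TATA letters. The C/EBP letters were found in 9.56%, those of NR5A2 in 1.33% and those of HNF4A in 0.384% of all promoters, and none of the 3 occurs in the 5 sequences shown. Of the promoters not shown, the second of Nr5a2 held a C/EBP match 243 bases before its start. The first of Foxa2 held an ONECUT match at 213 bases. TATA matches lay in the third Foxa2 promoter (208 bases), the Foxa3 promoter (36 bases) and the first Prox1 promoter (34 bases). The promoters of Cebpb and Onecut1, the second of Foxa2 and the second of Prox1 held no match in this window. These matches describe letters only and were not set against binding data.

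The 9 genes spanned a wide range of levels on the FPKM scale, which is per length. Cebpa had the highest mean over the 7 libraries, 206.4 ± 70.6 FPKM (SD, n = 7), followed by Hnf4a at 135.4 ± 25.5 FPKM and Cebpb at 70.1 ± 22.8 FPKM. Foxa3 averaged 25.5 ± 6.05 FPKM, Prox1 16.3 ± 2.77 FPKM, Foxa2 15.6 ± 3.69 FPKM and Nr5a2 12.3 ± 2.52 FPKM. Foxa1 averaged 5.40 ± 1.98 FPKM, and Onecut1 was the lowest at 2.23 ± 2.06 FPKM. Among all tested genes, Cebpa lay at the 97.3 percentile of mean level, Foxa1 at 50.5 and Onecut1 at 22.8. Hnf4a exceeded Cebpb, Cebpb exceeded Foxa3, Foxa3 exceeded Prox1 and Nr5a2 exceeded Foxa1 in 7 of 7 libraries. Other neighbours did not differ beyond their spread: Cebpa exceeded Hnf4a in 6 of 7 libraries, Prox1 exceeded Foxa2 in 5, Foxa2 exceeded Nr5a2 in 5, and Foxa1 exceeded Onecut1 in 6. The exceptions were control 3, where Hnf4a stood above Cebpa and Onecut1 above Foxa1, control 3 and 4 for Prox1 and Foxa2, and MDL-800 2 and control 1 for Foxa2 and Nr5a2.

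**Figure D1:**
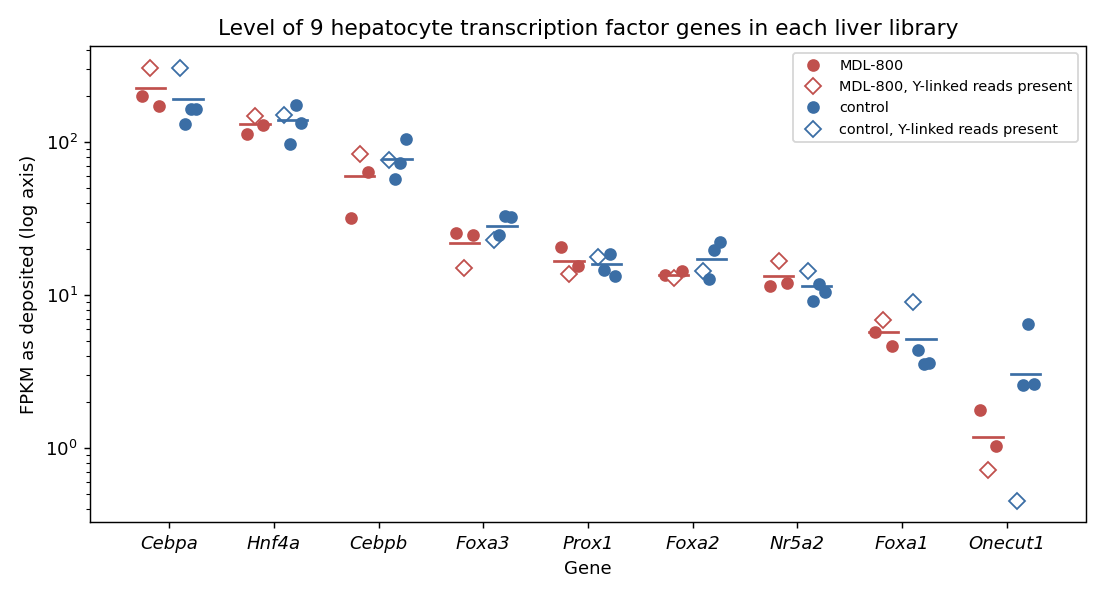
FPKM of each of the 9 genes (log axis) in each library, MDL-800 in red and control in blue, with group means as lines and open diamonds for the 2 libraries with Y-linked reads. Genes run from the highest mean (Cebpa, 206.4 FPKM) to the lowest (Onecut1, 2.23 FPKM), and the points of the groups overlap for every gene.

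None of the 9 genes passed the test between MDL-800 and control livers, and the groups overlapped for each of them. Onecut1 had the lowest log2 fold change, -0.69, and Cebpa the highest, 0.27. Across the table, 0 of 11394 genes (0%) passed limma at an adjusted p under 0.05, with 553 genes (4.85%) at an unadjusted p under 0.05. Higher in MDL-800 were 3.23% of all tested genes by that measure, and lower were 1.62%. As a further test, limma voom on recovered reads, with summed reads as library size, also called 0, with 748 at an unadjusted p under 0.05. Of the 9 genes, 0 had an unadjusted p under 0.05, and groups that do not overlap were found for 0 of 9, against 6.45% of all tested genes. In the log2 fold change of FPKM + 1, 4 of the 9 were above 0 and 5 below, with a median of -0.06, and 54.2% of all tested genes were above 0, with a median of 0.02. The exact two-sided permutation p over 35 assignments ran from 0.286 for Foxa3 to 0.857 for Prox1, where 0.0286 is the smallest these groups can give.

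**Figure D2:**
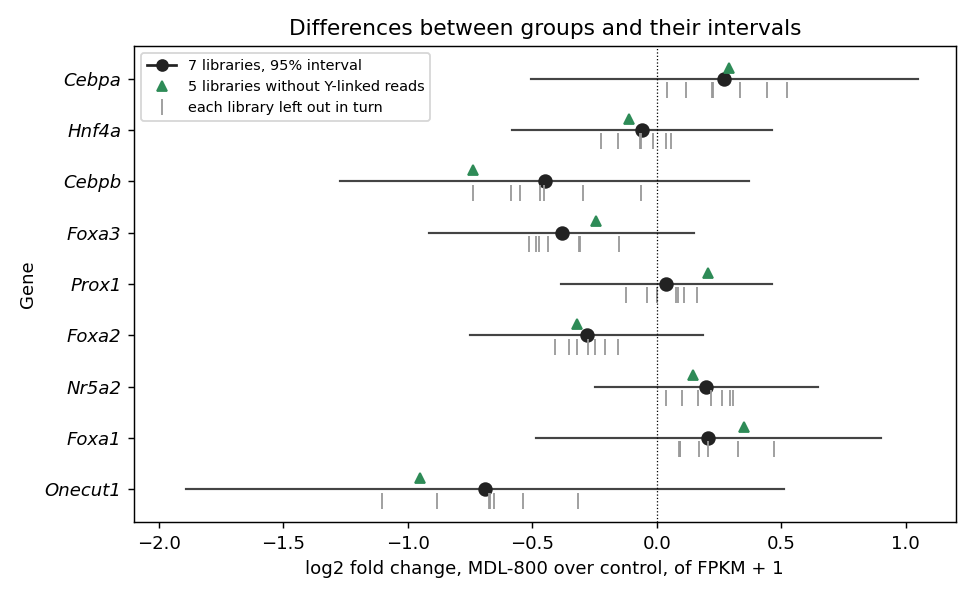
log2 fold change of FPKM + 1, MDL-800 over control, for each gene (dots, with limma 95% intervals), with the value in the 5 libraries without Y-linked reads (triangles) and with each library left out (ticks). Every interval includes 0, and the widest belongs to Onecut1, from -1.89 to 0.51.

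Hnf4a encodes the nuclear receptor at the centre of the network (ENSMUSG00000017950, chromosome 2, 163506808 to 163572910, plus strand, in GRCm38 as are all gene coordinates here). It stood at 113.4, 148.9 and 130.3 FPKM in MDL-800 1, 2 and 3, against 149.9, 96.7, 174.3 and 134.3 FPKM in control 1, 2, 3 and 4. The MDL-800 values all lay inside the control range, whose ends were control 2 and control 3. Its log2 fold change was -0.06 (limma interval at 95%, -0.58 to 0.46, adjusted p = 0.971). The sign turned without MDL-800 1 (0.04) and without control 3 (0.06). Hnf4aos, a transcript on the opposite strand that overlaps 34913 bases of the Hnf4a locus, stood at 2.03 to 6.75 FPKM in MDL-800 and 2.91 to 14.1 FPKM in control livers, on 34 to 190 reads. The library chemistry does not mark strand, so reads in shared bases cannot be assigned to either gene, and Hnf4aos too was highest in control 3. The gene table does not separate the upstream and downstream promoters.

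The 3 FOXA genes encode forkhead proteins with closely related DNA-binding domains. Foxa3 (ENSMUSG00000040891, chromosome 7, 19013284 to 19023538) was the most abundant of them, and stood at 25.6, 15.1 and 24.6 FPKM in MDL-800 1, 2 and 3 and at 22.9, 24.9, 32.8 and 32.6 FPKM in control 1, 2, 3 and 4. The lowest was MDL-800 2 and the highest were control 3 and 4, and the log2 fold change was -0.38 (limma interval at 95%, -0.91 to 0.15, adjusted p = 0.950). Foxa2 (ENSMUSG00000037025, chromosome 2, 148042877 to 148046969) stood at 13.5, 12.9 and 14.4 FPKM in MDL-800 livers, against 14.3, 12.7, 19.6 and 22.1 FPKM in control livers. Its MDL-800 values lay close together, at the level of control 1 and 2 and below control 3 and 4. For Foxa2 the log2 fold change was -0.28 (limma interval at 95%, -0.75 to 0.19, adjusted p = 0.950). Foxa1 (ENSMUSG00000035451, chromosome 12, 57540628 to 57546916) stood at 5.69, 6.89 and 4.68 FPKM in MDL-800 livers, against 9.01, 4.37, 3.57 and 3.59 FPKM in control livers. Control 1 was the highest of all 7, and the other 3 control livers were below every MDL-800 liver. For Foxa1 the log2 fold change was 0.21 (limma interval at 95%, -0.48 to 0.90, adjusted p = 0.951), and it was 0.47 without control 1 (unadjusted p = 0.0201, limma adjusted p = 0.586).

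The make-up of the FOXA group differed among libraries in a way that does not depend on how a library is scaled. Foxa1 gave 19.7% of the summed FPKM of the 3 genes in MDL-800 2 and 19.5% in control 1, the libraries with Y-linked reads. In the other 5 libraries its share was 12.7% in MDL-800 1 and 10.7% in MDL-800 3, against 10.4% in control 2, 6.37% in control 3 and 6.16% in control 4. Foxa2 varied little, with 30.2% to 37.9% of the sum, and Foxa3 gave 43.3% to 59.4%. Foxa3 made up the largest share in every library.

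The C/EBP genes encode basic leucine zipper proteins, of which C/EBP-alpha maintains metabolic genes and C/EBP-beta responds to cytokines, fasting and injury. Cebpa (ENSMUSG00000034957, chromosome 7, 35119293 to 35121928) stood at 201.2, 303.4 and 173.2 FPKM in MDL-800 1, 2 and 3, against 307.3, 131.3, 163.6 and 165 FPKM in control 1, 2, 3 and 4. The highest library of each group was the one with Y-linked reads, and the remaining MDL-800 livers lay above the remaining control livers. The log2 fold change was 0.27 (limma interval at 95%, -0.51 to 1.05, adjusted p = 0.950). Cebpb (ENSMUSG00000056501, chromosome 2, 167688915 to 167690418) stood at 32.02, 83.1 and 63.8 FPKM in MDL-800 livers, against 76.0, 57.3, 73.3 and 105.3 FPKM in control livers. MDL-800 1 was lowest by a wide margin and control 4 highest, while the other 5 libraries lay between 57.3 and 83.1 FPKM. For Cebpb the log2 fold change was -0.45 (limma interval at 95%, -1.27 to 0.37, adjusted p = 0.950), and -0.06 without MDL-800 1. Tmem189 overlaps 908 bases of Cebpb on the opposite strand and stood at 2.77 to 5.58 FPKM. Both C/EBP genes are also expressed in myeloid cells, whose markers differed between the libraries, and the part of those cells in these levels was not tested. The ratio of Cebpa to Cebpb was 6.28, 3.65 and 2.72 in MDL-800 1, 2 and 3 and 4.04, 2.29, 2.23 and 1.57 in control 1, 2, 3 and 4. MDL-800 1 had the highest ratio and control 4 the lowest, and the groups overlapped through control 1.

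Onecut1, also called HNF6, encodes a cut-domain homeobox factor (ENSMUSG00000043013, chromosome 9, 74861921 to 74891781). It was the most variable of the 9, at 1.77, 0.720 and 1.03 FPKM in MDL-800 1, 2 and 3, against 0.453, 2.56, 6.49 and 2.61 FPKM in control 1, 2, 3 and 4. These values rest on 126, 46 and 74 reads in MDL-800 livers and on 27, 205, 378 and 158 reads in control livers. The 3 control livers without Y-linked reads lay above every MDL-800 liver, while control 1 was the lowest of all. The log2 fold change was -0.69 (limma interval at 95%, -1.89 to 0.51, adjusted p = 0.950) on the scale of FPKM + 1, and -0.92 with a pseudocount of 0.1. Without control 1 it was -1.11 (unadjusted p = 0.0168, limma adjusted p = 0.586), and without control 3 it was -0.32. Foxa1 and Onecut1 were the 2 of 9 genes with an unadjusted p under 0.05 when control 1 was left out, where 8.29% of all tested genes had one. The groups of Foxa1, Cebpa and Onecut1, 3 of 9 genes, then did not overlap, against 15.5% of all tested genes. Onecut2, its close relative, averaged 7.41 ± 0.09 FPKM over the MDL-800 livers (SD, n = 3) and 9.84 ± 3.96 FPKM over the control livers (SD, n = 4), with a log2 fold change of -0.30. Control 3 was highest for Onecut2 as well, at 15.5 FPKM. Onecut2 exceeded Onecut1 in 7 of 7 libraries, by a ratio of 4.16 to 10.4 in MDL-800 and 2.39 to 16.6 in control livers.

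Nr5a2, also called LRH-1, encodes a nuclear receptor of bile acid and cholesterol genes (ENSMUSG00000026398, chromosome 1, 136842571 to 136960448). It stood at 11.4, 16.6 and 11.9 FPKM in MDL-800 1, 2 and 3, against 14.4, 9.09, 11.8 and 10.5 FPKM in control 1, 2, 3 and 4. The log2 fold change was 0.20 (limma interval at 95%, -0.25 to 0.65, adjusted p = 0.950). Prox1 encodes a homeobox protein that binds HNF4A and NR5A2 and represses their activity (ENSMUSG00000010175, chromosome 1, 190118035 to 190170714). It stood at 20.8, 13.7 and 15.4 FPKM in MDL-800 livers, against 17.6, 14.6, 18.6 and 13.4 FPKM in control livers, which overlap through most of their range. Its log2 fold change was 0.04 (limma interval at 95%, -0.39 to 0.46, adjusted p = 0.979), and its sign turned when MDL-800 1, control 2 or control 4 was left out and with a replicate block. Prox1 had the smallest spread of the 9, with an SD of 0.226 in log2(FPKM + 1) over 7 libraries, against a median SD of 0.227 over all tested genes. The opposite-strand transcript Prox1os, which overlaps 419 bases of the Prox1 locus, stood at 7.70 to 15.0 FPKM. Lymphatic endothelial markers, of which 5 were found as single rows, summed to 3.4 to 6.3 FPKM in MDL-800 and 1.8 to 7.5 FPKM in control livers, below Prox1 itself in every library.

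Several of the 9 genes stood apart in MDL-800 2 and control 1, the libraries with Y-linked reads. Cebpa, Foxa1 and Nr5a2 were higher in both than in the other 5, and Foxa3 and Onecut1 were lower in both. Of all tested genes, 20.0% were higher and 12.8% lower in this way, so 5 of 9 is read against 32.8%. For Cebpa, the libraries with Y-linked reads held 303.4 and 307.3 FPKM, against 131.3 to 201.2 FPKM in the others. For Nr5a2 they held 16.6 and 14.4 FPKM, against 9.09 to 11.9 FPKM, and for Foxa3 15.1 and 22.9 FPKM, against 24.6 to 32.8 FPKM. In the limma model with a term for Y-linked reads, the log2 difference was 0.86 with a standard error of 0.16 for Cebpa (adjusted p = 0.0553), 0.72 for Foxa1 (adjusted p = 0.0986) and 0.46 for Nr5a2 (adjusted p = 0.109). It was -0.52 for Foxa3 (adjusted p = 0.131) and -1.10 for Onecut1 (adjusted p = 0.186), so that 0 of 9 genes passed, against 2.42% of all tested genes. With summed reads as the denominator, the same 3 genes were higher and Foxa2 joined Foxa3 and Onecut1 among the lower. Foxa1 was then separated by only 5.37 against 5.36 FPKM. The log2 difference on that scale was 0.67 for Cebpa, 0.55 for Foxa1 and 0.28 for Nr5a2. It was -0.37 for Foxa2, -0.70 for Foxa3 and -1.10 for Onecut1. The share of all tested genes that stood apart on that scale is not given here, so these genes have no background there. Cux2, a cut-domain factor on the list of other liver-enriched factors and chosen here after its values were seen, had 1 read in each of the libraries with Y-linked reads and 461 to 1083 reads in the others. Its log2 difference passed limma (-2.37, adjusted p = 0.0114). Macrophage markers summed to 203.6 and 254.9 FPKM in these 2 libraries, against 479.3 to 2289 FPKM in the other 5. Cholangiocyte markers summed to 35.2 and 32.2 FPKM, against 38.5 to 100.4 FPKM, and the fetal and dedifferentiation list to 1.81 and 3.28 FPKM, against 6.57 to 19.8 FPKM. The part of these lists in the differences was not tested.

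**Figure D3:**
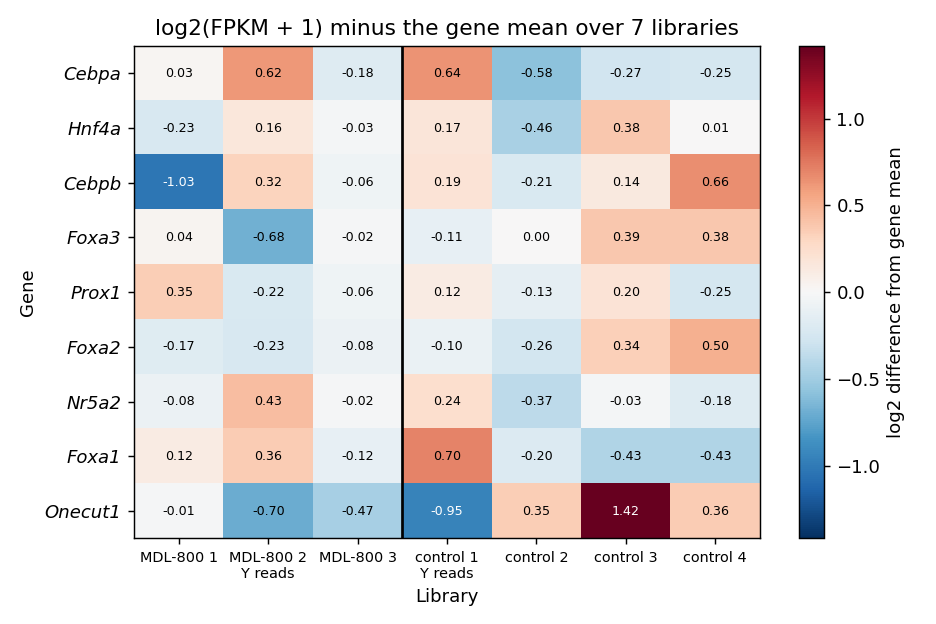
log2(FPKM + 1) of each gene minus its mean over the 7 libraries, MDL-800 on the left and control on the right of the black line, with red above and blue below the mean. MDL-800 2 and control 1, which hold Y-linked reads, share high Cebpa, Foxa1 and Nr5a2 and low Foxa3 and Onecut1, and Onecut1 in control 3 is the largest departure, at 6.49 FPKM.

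Within the 5 libraries without Y-linked reads, 2 MDL-800 against 3 control, the groups did not overlap for 3 of the 9 genes, against 22.7% of all tested genes. Foxa1 and Cebpa lay higher in both MDL-800 livers than in the 3 control livers, which 13.2% of all tested genes did. Onecut1 lay lower, as did 9.50% of them. The log2 fold changes there were 0.35 for Foxa1 (limma adjusted p = 0.937), 0.29 for Cebpa (limma adjusted p = 0.937) and -0.95 for Onecut1 (limma adjusted p = 0.937). The Cebpb value was -0.74 and that of Prox1 0.21, with overlapping groups. Between MDL-800 2 and control 1, the only pair with Y-linked reads, the log2 difference was -0.34 for Foxa1, -0.02 for Cebpa and 0.24 for Onecut1. Each was opposite in sign to the 5 other libraries, that of Cebpa barely so, and a pair of single libraries has no test of its own. The fitted interaction of group with Y-linked reads was -0.70 for Foxa1, -0.31 for Cebpa and 1.19 for Onecut1. These 3 genes were picked by their values in the 5 libraries, which the interaction uses as well. For the rest of the 9 genes it ran from -0.55 (Prox1) to 0.87 (Cebpb). The interaction rests on the pair of MDL-800 2 and control 1, so only its size is given. Over all 7 libraries with a term for Y-linked reads, 1 of 9 genes, Foxa3, had an unadjusted p under 0.05 between MDL-800 and control livers (0.0494, limma adjusted p = 0.685), against 7.27% of all tested genes.

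Other liver-enriched factors were spread around 0 as the 9 genes were. Of 20 tested, 10 were above 0 and 10 below, with a median log2 fold change of 0.01, and none passed limma. Nr0b2, also called SHP, a corepressor that inhibits NR5A2, reached 75.7 FPKM in MDL-800 2 and 60.2 FPKM in control 1, against 16.5 to 33.9 FPKM in the other 5 livers. The smallest p values on the list were those of Tbx3, Cebpd, Gata4 and Creb3l3, with log2 fold changes of -0.48, -0.42, 0.26 and 0.43 (limma adjusted p = 0.950 for each). Cebpd, the C/EBP gene most tied to the acute phase, averaged 2.64 ± 0.465 FPKM over the MDL-800 livers (SD, n = 3) and 3.99 ± 1.36 FPKM over the control livers (SD, n = 4).

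Target genes of the factors showed no call either, and their lists were chosen with earlier results of these data known. Of 20 HNF4A targets, 9 were above 0 and 11 below (median -0.02), and of 12 FOXA targets 5 were above and 7 below (median -0.10). The genes with the smallest p were F7, F11, Cyp8b1 and Ces2a for HNF4A and Afp, Apob, Tdo2 and G6pc for FOXA. F7, coagulation factor VII, averaged 71.1 ± 6.06 FPKM over the MDL-800 livers (SD, n = 3) and 133.5 ± 78.7 FPKM over the control livers (SD, n = 4), with 247.5 FPKM in control 3 (log2 fold change -0.74). Afp, the fetal albumin relative, averaged 1.47 ± 0.682 FPKM over the MDL-800 livers (SD, n = 3) and 2.60 ± 0.821 FPKM over the control livers (SD, n = 4), with a log2 fold change of -0.55. The fetal and dedifferentiation list to which Afp belongs had 3 of 7 genes at a tested level, 1 above and 2 below 0.

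Of 12 C/EBP targets, 3 were above 0 and 9 below (median -0.21), and 1 had an unadjusted p under 0.05, which among all tested genes 1.62% had in the lower direction. That gene was Orm1, an acute phase plasma protein gene, which averaged 1112 ± 224 FPKM over the MDL-800 livers (SD, n = 3) and 2711 ± 1359 FPKM over the control livers (SD, n = 4) (log2 fold change -1.19, limma adjusted p = 0.950). Hpx, Hp and Itih4, which encode other plasma proteins of the acute phase, had log2 fold changes of -0.65, -0.67 and -0.39. They had the next smallest p values on the list, and their groups overlapped. Their highest levels were in control 4 for Hpx and Hp and in control 3 for Itih4. Crp and Serpina3n, also on the list, had log2 fold changes of -0.09 and -0.18. Orm1 has close paralogs, so its reads are uncertain. Of 10 NR5A2 targets, 7 were above 0 and 3 below (median 0.20). Abcg8 encodes a sterol transporter, Cyp8b1 a bile acid synthesis enzyme and Dio1 a thyroid hormone deiodinase. Their log2 fold changes were 0.46, 1.09 and -0.58 (limma adjusted p = 0.950 for each). Cyp8b1 stood at 83.2, 119.1 and 53.1 FPKM in MDL-800 1, 2 and 3. In control 1, 2, 3 and 4 it stood at 49.1, 42.2, 101.3 and 8.87 FPKM, so the groups overlapped. The limma interval of Cyp8b1 ran from -0.67 to 2.85, and its log2 fold change from 0.44 to 1.56 over the alternatives. Dio1 stood at 27.5 to 74.4 FPKM in MDL-800 and 31.4 to 194.9 FPKM in control livers, highest in control 3. The target lists share genes, so their counts and medians are not independent. Cyp8b1 is also on the HNF4A list, and Tat, Pck1 and G6pc are on the HNF4A, FOXA and C/EBP lists. Ttr and Apob are on the HNF4A and FOXA lists, Alb on the FOXA and C/EBP lists, and Abcb11 and Slc10a1 on the FOXA and NR5A2 lists.

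**Figure D4:**
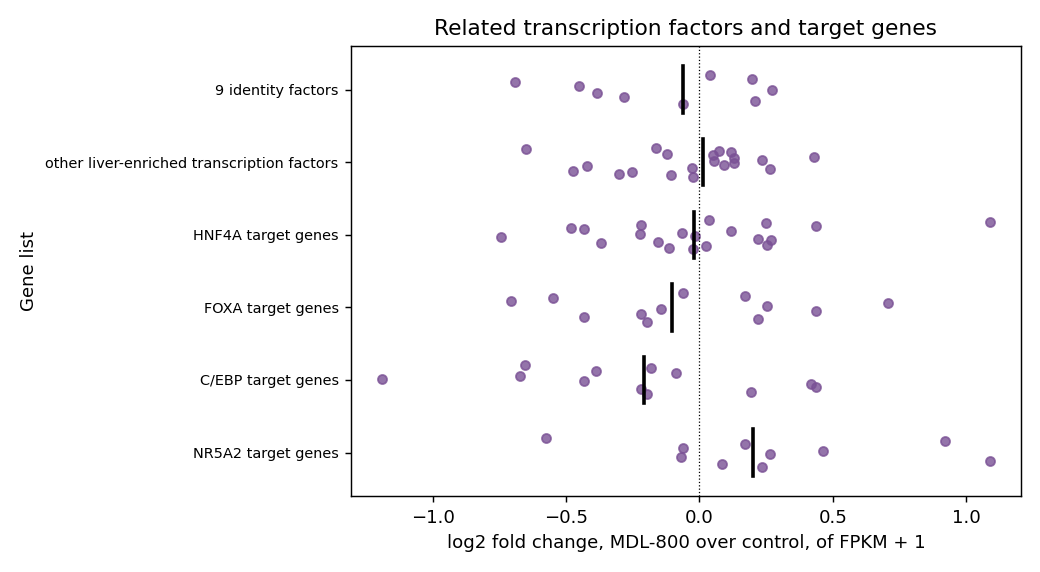
log2 fold change of FPKM + 1, MDL-800 over control, of each tested gene on 6 lists (dots), with list medians (bars). Medians run from -0.21 for C/EBP targets to 0.20 for NR5A2 targets, and the dot farthest to the left is Orm1 at -1.19. Some genes are on several lists and are drawn on each.

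The genes whose profile over the 7 libraries was most like that of a member were found by the root mean square difference between profiles scaled to unit SD. For Hnf4a the closest of 11393 other tested genes was F9, coagulation factor IX and a gene on the HNF4A target list, at 0.148 SD, where the median gene was at 1.14 SD. The processed pseudogene Rpl9-ps4 and Arf1 followed at 0.187 and 0.204 SD. For Foxa3 they were Selenow, Stat2 and Rnf135 at 0.184, 0.221 and 0.243 SD, and for Cebpb they were Heatr6, A230083G16Rik and Gm15502 at 0.297, 0.325 and 0.328 SD. Profiles were taken on deposited FPKM without rescaling, and summed reads were 0.995 (control 2) to 1.28 (MDL-800 2) times the authors' total. With summed reads as the denominator, Hnf4a ran from 97.2 to 140.2 FPKM, against 96.7 to 174.3 FPKM as deposited. The part of library scaling in these likenesses was not tested. With 7 libraries and this many genes, a close profile is a description only.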

How the data were processed

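The values analysed are gene FPKM as the authors deposited them, in a single table of 7 liver libraries. Per the labels' protocols, liver lysate went straight into SMARTer cDNA synthesis, and the amplified cDNA was sonicated before NEBNext library preparation, which does not mark strand. TopHat2 2.0.14, Bowtie2 2.1.0 and Cufflinks 2.2.1 with build mm9 are named per the submitters' processing notes, but the coordinates are those of GRCm38: 53756 of 54409 shared GENCODE M21 identifiers agree in chromosome and start, as do all 9 genes described here. The counting tool was not given in the sources used here. Whole reads were recovered because FPKM multiplied by length moved in equal steps within a library (100% of values above 0, tolerance 0.01). Summed reads were 0.995 (control 2) to 1.28 (MDL-800 2) times the total that the authors divided by.

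Values were tested as log2(FPKM + 1) without rescaling, for genes averaging 1 FPKM or more, with limma 3.58.1 in R 4.3.3 (eBayes with a trend, two-sided, Benjamini-Hochberg adjustment over 11394 genes). Fold changes on this scale understate those of low genes. Exact permutation tests used scipy 1.17.1. The genes, lists, tests and alternatives were chosen with earlier results of these data known. The alternatives were other pseudocounts, filters, scalings and weights, voom, a replicate block, a term for Y-linked reads, the 5 libraries without them, and leaving out each library. Named genes were the 9 factors, genes overlapping them, close relatives or partners (Onecut2, Nr0b2, Cebpd), the 4 smallest p values of each list of other factors or targets, the 2 most abundant markers of each cell type, and the 3 most similar profiles for Hnf4a, Foxa3 and Cebpb. A few items within these choices are not reported here. The limma procedure was tested on simulated data. Plots were drawn with matplotlib 3.10.9.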

Additional observations from a re-analysis of the deposited data

Results flagged for a closer look

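Foxa1 in control 1, at 9.01 FPKM, stood apart from the other 3 control livers, at 3.57 to 4.37 FPKM, by a gap of 0.852 of the range, above Dixon's 95% critical value for 4 samples. Abcg8, on the NR5A2 target list, stood apart in the same library at 34.96 FPKM, against 17.8 to 19.9 FPKM. Control 1 is the only control library with Y-linked reads. In MDL-800 2, which also holds them, Abcg8 stood at 43.1 FPKM and Foxa1 at 6.89 FPKM as deposited. With summed reads as the denominator, Foxa1 stood at 7.19 FPKM in control 1. On that scale it was 5.37 FPKM in MDL-800 2 and 5.36 FPKM in MDL-800 1. The limma term for Y-linked reads was 0.77 for Abcg8 (adjusted p = 0.0447), and 2.42% of all tested genes passed for that term. The sinusoidal endothelial marker Clec4g was low in control 4, at 2.40 FPKM against 11.7 to 12.6 FPKM in the other control livers. The summed sinusoidal endothelial markers were also lowest there, at 14.8 FPKM against 28.4 to 45.4 FPKM in the other control livers. The neutrophil markers S100a9 and S100a8 were high in control 2, at 159.9 FPKM against 11.4 to 30.0 FPKM and at 111.5 FPKM against 9.68 to 14.9 FPKM. Of 40 genes examined in the control livers, 5 were flagged in this way, and chance flags about 5% of groups.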

How the results depend on the processing

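None of the 9 genes passed limma under any of the 18 alternatives, where adjusted p ranged from 0.586 to 0.9999 (Onecut1 is not tested at a mean of at least 5 FPKM). Foxa1, Foxa2, Foxa3, Cebpa, Cebpb, Onecut1 and Nr5a2 kept their direction in all of them. Leaving out 1 library gave ranges of -0.22 to 0.059 for Hnf4a, -0.12 to 0.16 for Prox1, 0.089 to 0.47 for Foxa1, -0.41 to -0.16 for Foxa2, -0.51 to -0.15 for Foxa3, 0.039 to 0.52 for Cebpa, -0.74 to -0.06 for Cebpb, -1.11 to -0.32 for Onecut1 and 0.038 to 0.31 for Nr5a2. The Hnf4a sign turned without MDL-800 1 (0.0372) and without control 3 (0.059). The Prox1 sign turned without MDL-800 1 (-0.12), without control 2 (-0.000107), without control 4 (-0.041) and with the replicate block (-0.041). Among other genes, Nr0b2 turned to -0.035 with array weights, -0.067 without control 3 and -0.27 without MDL-800 2 (range up to 0.56). The Y-linked term turned for Prox1 to 0.044 without MDL-800 1 and, at the end of a range from -0.37, 0.18 without MDL-800 2. For Cebpb it ran from -0.0042 without MDL-800 2 to 0.86. That limma term passed for Cebpa with array weights, a pseudocount of 0.1, a mean of at least 5 FPKM or without control 2 (adjusted p from 0.0129 to 0.0497). For Foxa1, Nr5a2 and Foxa3 it passed with array weights only. The share of all tested genes that passed in these settings is not given here, so these calls are not read as particular to the 9 genes. Leaving out MDL-800 2 or control 1 leaves 1 library with Y-linked reads, which is assumed to vary like the others. The difference was then 1.01 and 0.70 for Cebpa and 0.43 and 0.48 for Nr5a2. Without MDL-800 2 it was 1.05 for Foxa1, -0.37 for Foxa3 and -1.66 for Onecut1. Over all alternatives the term ran from 0.36 to 1.05 for Foxa1 and from -0.74 to -0.37 for Foxa3. For Onecut1 it ran from -2.26 to -0.46. The cause was not tested.

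The count of genes past the threshold was 0 to 1 with a library left out, and was 1 without MDL-800 1 and 1 without control 1. Genes with an unadjusted p under 0.05 numbered 274 (without MDL-800 3) to 948 (without control 1), 1083 with no filter, 305 at a mean of at least 5 FPKM and 946 with array weights. The split into higher and lower was 368 and 185, and it was 620 and 137 with summed reads, 631 and 117 with voom, 248 and 264 without control 2, 220 and 186 without MDL-800 2, and 527 and 419 with array weights. Of the 9 genes, those with an unadjusted p under 0.05 numbered 0 to 2 with a library left out and 1 (Foxa3) with the term for Y-linked reads, where 828 of 11394 genes (7.27%) had one. Those whose groups do not overlap numbered 0 to 3 with a library left out (3 without control 1), against 8.26% to 15.5% of all tested genes, and 3 without the libraries that hold Y-linked reads, against 22.7%. Same-numbered libraries did not deviate together (correlations of -0.587, -0.553 and 0.057). The correlation was 0.771 between MDL-800 2 and control 1, the libraries with Y-linked reads. Same-numbered pairs 1 and 2 each join one of these to a library without such reads, so the check cannot decide whether the numbers pair libraries. The replicate block, to which control 4 adds nothing, left 192 genes with an unadjusted p under 0.05. Onecut1 rests on 27 to 378 reads per library, and its level differed 14.3-fold between libraries.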
